A study of Rattus norvegicus with 6 samples.

Results

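The genes described here encode the 8 subunits of the CCT chaperonin: Tcp1 (subunit alpha), Cct2 (beta), Cct3 (gamma), Cct4 (delta), Cct5 (epsilon), Cct6a (zeta), Cct7 (eta) and Cct8 (theta). They were taken by gene symbol from the deposited expression table, which held 1 row for each of them among 32623 listed genes, and all 8 were among the 14342 genes with enough counts to be tested. RNA had been sequenced from nucleus pulposus cells, the cells of the soft core of the intervertebral disc, grown from the lumbar spine of 4-week-old Sprague-Dawley males and used at passages 3 to 5. For 72 h one group had carried a lentivirus with a short hairpin RNA against Bmal1, the partner of CLOCK in the circadian transcription factor (shBmal1, 3 libraries), and the other a lentivirus with a negative control hairpin (shNC, 3 libraries). All libraries thus came from lentivirus-treated, passaged cells. The labels do not give the number of hairpins, the multiplicity of infection or the origin of the replicate libraries in distinct cultures or rats. All p-values below therefore speak only for the spread between the sequenced samples, which may be technical.

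CCT, also called TRiC, is a barrel of a pair of stacked rings, and each ring holds 1 copy of each of the 8 related subunits. An unfolded protein binds inside the barrel, ATP binding and hydrolysis close a lid built into the subunits, and the protein folds in the enclosed chamber. Actin and tubulin are its best known clients, along with many proteins built from WD repeats, such as the beta subunits of G proteins and the activators of the anaphase-promoting complex. Prefoldin hands newly made actin and tubulin to CCT, phosducin-like proteins act as its cofactors, and the heat shock factors are known activators of CCT genes.

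In shBmal1 the transcripts of all 8 subunits were higher than in shNC, but by very unequal amounts. Cct4 rose 7.19-fold in the authors' FPKM (fragments per transcript length and sequencing depth) and Tcp1 3.76-fold. Cct2, Cct5 and Cct3 rose 2.43-fold, 2.36-fold and 2.12-fold, and Cct8, Cct6a and Cct7 rose 1.79-fold, 1.61-fold and 1.34-fold. FPKM gave larger ratios than the other scales used below. Each subunit passed edgeR's quasi-likelihood test at a Benjamini-Hochberg adjusted p under 0.05 over all tested genes, and the 3 shBmal1 libraries lay above the 3 shNC libraries for each of them. Of all tested genes, 71.3% passed that test in either direction, 36.0% were called higher, and 38.2% had every shBmal1 library above every shNC library and 39.1% the reverse. Calls were therefore common in this comparison, and so were large rises. Calls of higher came with a log2 fold change of at least 1 in 25.4% of tested genes and at least 2 in 14.3%. The median log2 fold change was 1.05 over the 8 subunits and −0.01 over all tested genes. An exact two-sided permutation test of 1 gene in 3 against 3 libraries cannot go below p = 0.1.

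The 2 groups differed in more than the hairpin. The shNC libraries held 44043803 to 49783710 counts and the shBmal1 libraries 8773762 to 11679587, a 4.44-fold difference in the means, and mitochondrial rRNA took 0.0330 to 0.0602% of counts in shNC and 0.722 to 1.31% in shBmal1. The hairpin's target, listed as Arntl, had 1220, 1396 and 1333 counts in shNC and 20, 52 and 25 in shBmal1, as the labels say. Of 14 nucleus pulposus and notochord markers, 13 were found and 12 tested. Of these 12, 5 were lower, 2 higher and 5 did not pass, beside 35.3% lower and 36.0% higher among all tested genes. The summed level of these markers was 2849 to 3070 CPM in shNC and 442 to 462 CPM in shBmal1. CPM are counts relative to library size, scaled by the trimmed mean of M values. Most of the sum came from Mgp (mean 1613 CPM in shNC and 198 CPM in shBmal1), Acan (647 and 32.8 CPM) and Pax1 (526 and 84.8 CPM). Sox9 did not pass (10.1 and 9.86 CPM), and the 2 markers called higher were Foxf1 and Ca3. The notochord factor Tbxt had no count in any library. Markers of leukocytes summed to 32.4 to 43.0 CPM in shNC and 28.5 to 34.2 CPM in shBmal1, most of it from Cd14. Of this list 2 genes were tested, and Cd14 fell from 35.3 ± 5.77 to 26.8 ± 3.04 CPM (adjusted p = 0.0374, edgeR). The macrophage marker Cd68 had only 24, 12 and 18 counts in shNC and 36, 19 and 39 in shBmal1 (0.407 ± 0.143 and 2.88 ± 1.20 CPM). It passed the count filter only by its shBmal1 libraries, so no rise is read from its test (adjusted p = 0.00223, edgeR). Endothelial markers summed to 0.0849 to 0.493 CPM against 3.75 to 4.41 CPM, and erythroid markers to at most 0.593 CPM. Skeletal muscle markers summed to 11.3 to 14.2 CPM in shNC, to 60.7 and 66.5 CPM in shBmal1 replicates 2 and 3 and to 3.01 CPM in shBmal1 replicate 1. The part of depth, RNA composition and marker levels in the subunit changes was not tested.

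In bulk RNA, a change in the mix of cells and a change of RNA per cell cannot be told apart. The labels give no batch.

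Sequence upstream of the start site is shown for 4 of the genes: for Cct4 and Tcp1, which had the largest changes, for Cct5, the most abundant subunit transcript in control cells, and for Cct7, which had the smallest change. Each line gives the 250 bases before the RefSeq transcription start (build GRCr8), 5′ to 3′ on the gene's strand. Capitals mark the cyclic AMP response element TGACGTCA, the E-box CACGTG or a pair of heat shock units, TTCNNGAA or GAANNTTC, wherever these letters occur. The windows are chr14:101192807-101193056 (forward strand) for Cct4, chr1:50384528-50384777 (reverse strand) for Tcp1, chr2:84313774-84314023 (reverse strand) for Cct5 and chr4:119546480-119546729 (forward strand) for Cct7.
Cct4: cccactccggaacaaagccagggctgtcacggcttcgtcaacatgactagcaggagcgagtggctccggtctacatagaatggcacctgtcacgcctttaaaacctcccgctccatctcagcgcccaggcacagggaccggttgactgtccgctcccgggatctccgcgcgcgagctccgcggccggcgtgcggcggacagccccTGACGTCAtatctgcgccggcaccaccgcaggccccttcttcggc
Tcp1: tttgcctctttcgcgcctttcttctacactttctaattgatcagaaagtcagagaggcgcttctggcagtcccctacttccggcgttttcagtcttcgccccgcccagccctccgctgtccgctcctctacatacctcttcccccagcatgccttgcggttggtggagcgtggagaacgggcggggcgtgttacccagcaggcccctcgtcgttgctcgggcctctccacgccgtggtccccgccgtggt
Cct5: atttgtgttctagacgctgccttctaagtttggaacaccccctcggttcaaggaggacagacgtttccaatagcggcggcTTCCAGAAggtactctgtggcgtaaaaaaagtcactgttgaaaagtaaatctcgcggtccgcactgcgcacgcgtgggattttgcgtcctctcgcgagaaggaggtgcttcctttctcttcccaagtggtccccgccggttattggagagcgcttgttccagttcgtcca
Cct7: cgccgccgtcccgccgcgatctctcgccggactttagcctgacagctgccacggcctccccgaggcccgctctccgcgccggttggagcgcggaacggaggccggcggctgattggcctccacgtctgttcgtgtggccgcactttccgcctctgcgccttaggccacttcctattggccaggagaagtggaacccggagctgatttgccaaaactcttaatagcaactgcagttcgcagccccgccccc

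Windows of 300 bases, from 250 before the start to 50 after it, were searched on both strands for all 8 subunits and for 33465 RefSeq windows of that length. The full cyclic AMP response element TGACGTCA occurred in Cct4 alone among the subunits, 45 bases before the start, and in 1.83% of all windows. Cct4 was also the only subunit with 3 heat shock units in a row, GAA and TTC in alternation with a gap of 2 bases, in either orientation, which 0.798% of all windows hold. That match begins at base 26 of the transcribed sequence, in chr14:101193076-101193100, where capitals mark the 3 units.
Cct4 heat shock units: gtcgctTTCTGGAAGGTTCgtggag

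A pair of units TTCNNGAA was found in Cct5 (170 bases before the start), in Cct6a (40 bases before it) and, inside the triple match, in Cct4, against 8.77% of all windows. The E-box CACGTG, the core of the element that BMAL1 and CLOCK bind, did not occur in these windows of the 8 subunits and occurred in 6.42% of all windows. The D-box TTANGTAA was likewise without a match in the 8 windows (2.24% of all windows). CCAAT boxes (CCAAT) were present in 5 of the 8 windows (37.5% of all) and GC boxes (GGGCGG) in 6 (33.1% of all). These matches describe the letters of the windows and show no binding.

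Cct4, which encodes subunit delta (ENSRNOG00000009642, chromosome 14, 107767392 to 107780270, forward strand, in the coordinates of the deposited table, whose build the labels do not name), stood apart from the other subunits. The control libraries gave an FPKM of 55.5, 54.7 and 53.3, and the shBmal1 libraries 353, 412 and 411. The shNC values lay within a narrow band, and the lowest shBmal1 library was far above it. The rise is visible even before scaling, since Cct4 had 5732, 5894 and 5096 raw counts in shNC and 6989, 10760 and 10428 in the shallower shBmal1 libraries. The other 7 subunits had fewer raw counts on average in shBmal1 than in shNC, at 0.315 to 0.883 times the shNC mean. Scaled counts of Cct4 rose from 124.8 ± 3.82 to 830.7 ± 68.3 CPM (SD, n = 3), a log2 fold change of 2.73 ± 0.08 (SE; adjusted p = 7.85e-08, edgeR).

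Tcp1, which encodes subunit alpha and gave the complex its name (ENSRNOG00000014160, chromosome 1, 48025663 to 48033396, reverse strand), had an FPKM of 41.5, 44.6 and 44.3 in shNC and 144, 165 and 182 in shBmal1. The groups were well separated, and shBmal1 replicate 1 was the lowest of its group. The log2 fold change was 1.80 ± 0.09 (SE; adjusted p = 8.69e-07, edgeR).

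Cct2, Cct5 and Cct3 formed a middle group with changes close to 2-fold. Cct2, which encodes subunit beta (ENSRNOG00000021317, chromosome 7, 60109974 to 60122805, reverse strand), had an FPKM of 58.7, 60.0 and 62.8 in shNC and 131, 155 and 155 in shBmal1. Its log2 fold change was 1.17 ± 0.08 (SE; adjusted p = 4.14e-06, edgeR). Cct5, which encodes subunit epsilon (ENSRNOG00000011632, chromosome 2, 84667633 to 84678790, reverse strand), had an FPKM of 105, 101 and 107 in shNC and 215, 252 and 273 in shBmal1. Each shBmal1 library was thus about 2-fold or more above the shNC libraries, and the log2 fold change was 1.13 ± 0.09 (SE; adjusted p = 1.03e-05, edgeR). Cct3, which encodes subunit gamma (ENSRNOG00000019090, chromosome 2, 187668796 to 187693610, forward strand), had an FPKM of 38.5, 40.2 and 37.9 in shNC and 70.3, 85.7 and 90.9 in shBmal1. Here shBmal1 replicate 1 was again lowest, and the log2 fold change was 0.97 ± 0.09 (SE; adjusted p = 3.91e-05, edgeR).

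The smallest changes were those of Cct8, Cct6a and Cct7. Cct8, which encodes subunit theta (ENSRNOG00000001592, chromosome 11, 27130172 to 27141881, reverse strand), had an FPKM of 47.3, 44.2 and 47.0 in shNC and 76.3, 80.6 and 90.8 in shBmal1 (log2 fold change 0.73 ± 0.08, SE; adjusted p = 5.96e-05, edgeR). Cct6a, which encodes subunit zeta (ENSRNOG00000000923, chromosome 12, 30491416 to 30501860, reverse strand), was the least abundant subunit in each library, with an FPKM of 28.8, 32.9 and 32.2 in shNC and 43.0, 56.3 and 51.8 in shBmal1 (0.58 ± 0.10, SE; adjusted p = 0.00134, edgeR). Cct7, which encodes subunit eta (ENSRNOG00000015630, chromosome 4, 117235023 to 117252265, forward strand), had an FPKM of 59.5, 54.8 and 59.3 in shNC and 72.8, 76.2 and 84.5 in shBmal1 (0.32 ± 0.07, SE; adjusted p = 0.00466, edgeR). The Cct7 groups did not overlap, but the gap between them, as a ratio, was the smallest of the 8.

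The calls of Cct7 and Cct6a depended on the scaling. With FPKM rescaled to TPM (transcript levels that have the same sum in each library), the median log2 difference of all tested genes moved to −0.40. On that scale Cct7 came to −0.06 (adjusted p = 0.563, limma) and Cct6a to 0.20 (adjusted p = 0.198, limma), while the other 6 subunits were still called higher. The ratio of the summed subunit level, shBmal1 over shNC, was 2.84 in FPKM, 2.53 in CPM and 2.04 in TPM. Relative to the median of all tested genes, the 8 subunits lay 0.33 (Cct7) to 2.75 (Cct4) higher with the main scaling and 0.34 to 2.75 higher with TPM at a pseudocount of 1. The share of all calls that were higher was 50.5% with the main scaling and 36.2% with TPM. In the fit without a filter on low counts, where the median over 20330 genes was 0.31, the value of Cct7 relative to it was −0.07.

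**Figure D1:**
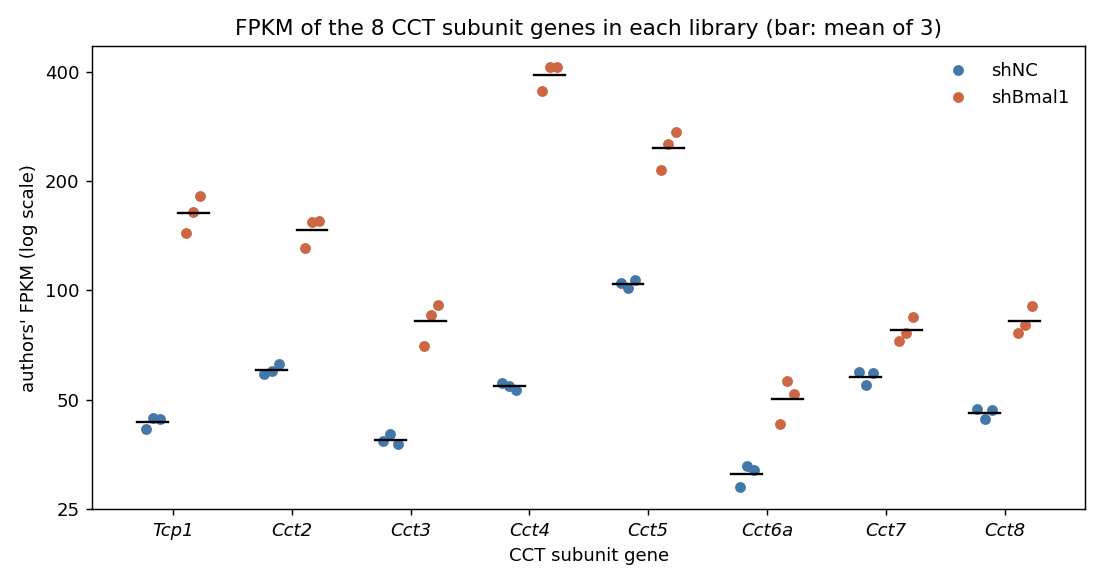
FPKM of each CCT subunit gene (log axis) in the 3 shNC libraries (blue points) and the 3 shBmal1 libraries (orange points), with black bars at the group means. The groups do not overlap for any of the 8 genes, the gap being widest for Cct4 (54.5 against 392 on average) and narrowest for Cct7 (57.9 against 77.8).

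**Figure D2:**
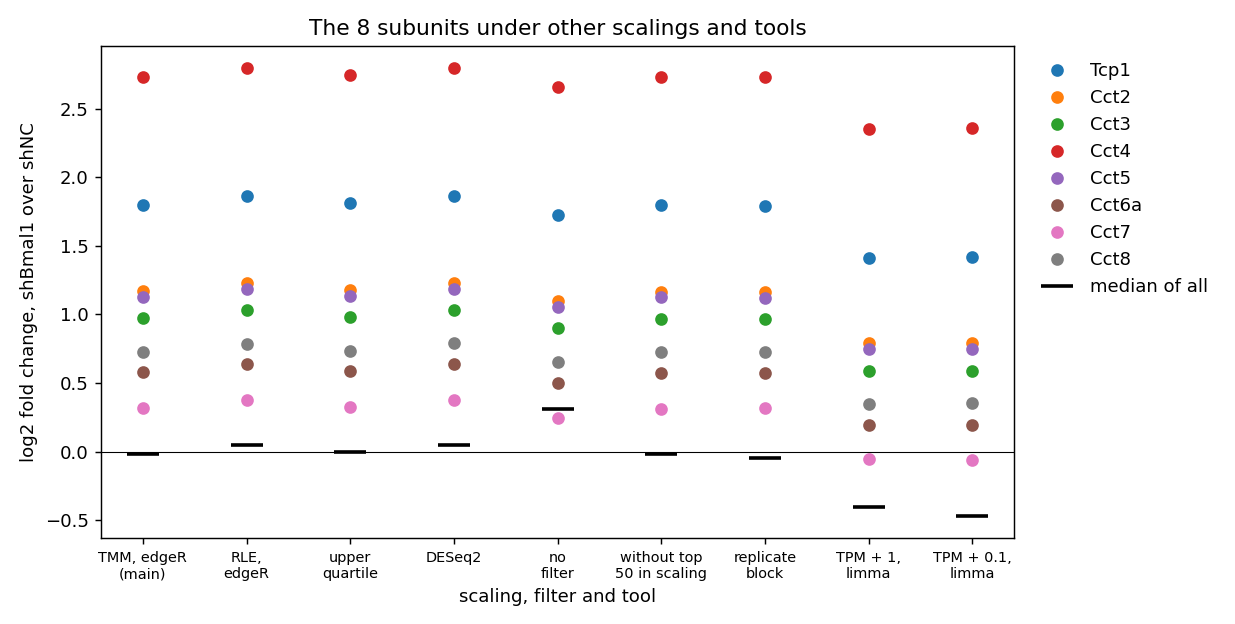
The log2 fold change (y axis) of each subunit under the main analysis and 8 alternatives (x axis), with black dashes at the median of all genes tested in that setting. The order of the subunits is the same from Cct4 to Cct7 in each column, and Cct7 is below 0 in both TPM columns.

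Within shBmal1, replicate 1 had the lowest CPM of the 3 libraries for all 8 subunits. The summed level of the subunits was 2468 CPM in that library, 2864 CPM in replicate 2 and 2945 CPM in replicate 3, against 1084 to 1097 CPM in shNC. Replicate 1 was also the shallowest library (8773762 counts), had the highest share of mitochondrial rRNA (1.31% against 0.725 and 0.722%) and had the low level of skeletal muscle markers given above. The part of these differences was not tested. Without that library, all 8 subunits were still called higher, with log2 fold changes from 0.33 for Cct7 to 2.77 for Cct4. The spread over the 3 shBmal1 libraries was accordingly wider than over the shNC libraries, with an SD of 255 against 6.96 CPM for the summed level.

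Since each ring needs 1 copy of each subunit, the balance between subunit transcripts is of interest in its own right. It is read here from FPKM, which corrects for length, so the order depends on the transcript lengths used. Counts over FPKM imply lengths of 1.73 (Cct3) and 1.46 (Cct6a) times that of Tcp1. In scaled counts of the shNC libraries Tcp1 (99.0 CPM) was the lowest on average, not Cct6a (104 CPM). In shNC the order of the mean FPKM was Cct5 (104), Cct2 (60.5), Cct7 (57.9), Cct4 (54.5), Cct8 (46.1), Tcp1 (43.5), Cct3 (38.9) and Cct6a (31.3). Neighbours in this order held it within each of the 3 shNC libraries, except Cct2 over Cct7 and Cct8 over Tcp1, which held in 2 of 3 each. The FPKM ranges of Cct7 and Cct4 overlapped between libraries, although Cct7 was the higher in all 3. In shBmal1 the order was Cct4 (392), Cct5 (247), Tcp1 (164), Cct2 (147), Cct8 (82.6), Cct3 (82.3), Cct7 (77.8) and Cct6a (50.3). Tcp1 was above Cct2 within each of the 3 shBmal1 libraries, although their ranges overlapped between libraries. Cct3 had no settled place beside Cct8 and Cct7, being above Cct7 in 2 of 3 libraries and below Cct8 in 1 of 3. Cct4 moved from rank 4 to rank 1, Tcp1 from rank 6 to rank 3 and Cct7 from rank 3 to rank 7.

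The transcripts became less even. The highest subunit had 3.08 to 3.65 times the FPKM of the lowest in shNC libraries and 7.32 to 8.21 times in shBmal1 libraries. The coefficient of variation over the 8 subunits was 41.1 ± 1.91% in shNC and 74.0 ± 1.44% in shBmal1 (SD, n = 3), and without Cct4 it was 44.4 ± 2.03% and 56.4 ± 1.17%. Cct4 made up 12.5 ± 0.40% of the summed FPKM of the subunits in shNC and 31.6 ± 0.78% in shBmal1. Tcp1 was the other subunit whose share was larger in shBmal1, at 13.2 ± 0.40% against 9.95 ± 0.38%. The share of Cct7 was 13.2 ± 0.52% in shNC and 6.28 ± 0.32% in shBmal1, and that of Cct6a 7.15 ± 0.50% and 4.05 ± 0.29%. These shares are ratios within a library, so that the scaling between libraries cancels out.

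**Figure D3:**
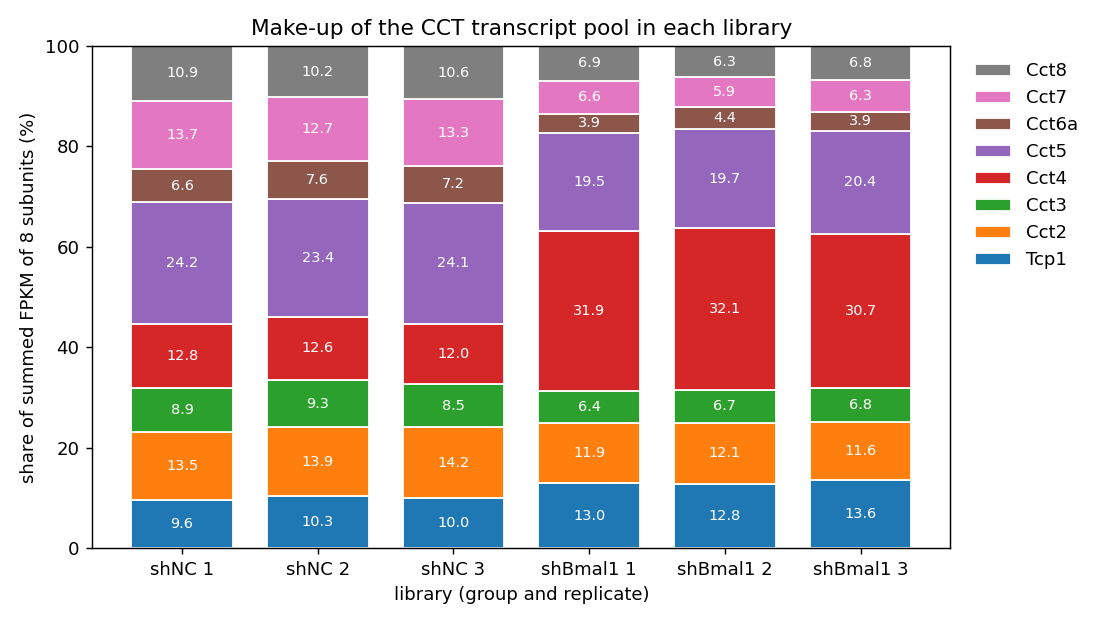
Share of each subunit in the summed FPKM of the 8 subunits (y axis, percent) in each of the 6 libraries (x axis). Cct4 takes 12.0 to 12.8% of each shNC library and 30.7 to 32.1% of each shBmal1 library, and the 3 libraries of a group look alike.

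The imbalance was tested by fitting all genes with the summed CCT count in place of the library size. In that fit 80.2% of all tested genes were called, 14.4% higher and 65.8% lower, against 2 subunits higher and 6 lower. Cct4 rose relative to the sum by 1.40 ± 0.07 on the log2 scale (SE; adjusted p = 7.30e-07, edgeR) and Tcp1 by 0.46 ± 0.07 (adjusted p = 0.000383). Cct7 fell by 1.02 ± 0.07 (adjusted p = 6.23e-06, edgeR), Cct6a by 0.76 ± 0.09, Cct8 by 0.61 ± 0.07 and Cct3 by 0.37 ± 0.07. Cct5 (−0.21, adjusted p = 0.0152) and Cct2 (−0.17, adjusted p = 0.0411) passed narrowly in edgeR. Cct5 lost its call without shNC replicate 1 or 3 (adjusted p = 0.0539 and 0.0625, edgeR). Cct2 lost it without any 1 of shNC replicates 1, 2 and 3 or shBmal1 replicates 2 and 3 (adjusted p = 0.0741, 0.112, 0.140, 0.0688 and 0.0796, edgeR), and without the filter on low counts (adjusted p = 0.0774).

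Since the sum is made of the subunits themselves, unequal rises must put some above it and others below. Because Cct4 is part of the sum, its rise lowers the others. Against the 7 subunits other than Cct4, a reference chosen after the values had been seen, Tcp1 rose by 0.80 ± 0.07 (adjusted p = 1.81e-05, edgeR) and Cct2 by 0.17 ± 0.07 (adjusted p = 0.0444). Cct5 (0.13, adjusted p = 0.0984) and Cct3 (−0.03, adjusted p = 0.725) did not pass in edgeR, and Cct6a, Cct7 and Cct8 fell by 0.42, 0.68 and 0.27. Cct4 rose by 1.74 ± 0.07 against this reference (adjusted p = 7.52e-07, edgeR). Relative to either summed count, Cct4 and Tcp1 transcripts were thus called higher and those of Cct7, Cct6a and Cct8 lower. The references share counts, so neither fit is separate support for the other. These are shares of transcripts, and the subunit make-up of the protein complex was not measured.

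Biochemical work on CCT has divided the ring into a side that binds ATP with high affinity (Tcp1, Cct2, Cct4 and Cct5) and a side that binds it weakly (Cct3, Cct6a, Cct7 and Cct8). The 4 subunits of the high-affinity side were the 4 with the largest fold changes, from 1.13 (Cct5) to 2.73 (Cct4) on the log2 scale, against 0.32 (Cct7) to 0.97 (Cct3) on the other side. By FPKM they were also the 4 most abundant subunit transcripts in shBmal1, though not in shNC, where Cct7 held rank 3 and Tcp1 rank 6. This grouping was recalled after the values were seen and is given without a test. The difference at its edge, between Cct5 (1.13 ± 0.09) and Cct3 (0.97 ± 0.09, SE), is small beside the errors. The same 4 subunits came first in all 14 alternative analyses, of which those that differ in scaling alone cannot change the order of genes much. All 14 reuse the same libraries, so their number is no separate support for the grouping.

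Among genes of a like abundance the subunits stood in the upper part of the changes. The shNC means of the 8 subunits spanned 99.0 to 197.8 CPM, and 848 tested genes had a shNC mean within that span, of which 29.8% were called higher. Of these 848 genes, 13 had a larger log2 fold change than Cct4, 42 a larger one than Tcp1, 87 to 109 a larger one than Cct2, Cct5 or Cct3, and 142 to 226 a larger one than Cct8, Cct6a or Cct7. Over all 14342 tested genes, 1502 had a larger log2 fold change than Cct4, 2374 than Tcp1 and 5982 than Cct7. The median profile of the 8 subunits over the 6 libraries was most like those of Htra1, which encodes a serine protease, Eloa, which encodes an elongin subunit, Serf2, Arpc2, which encodes a subunit of the Arp2/3 complex, and Atp6v1g1, which encodes a subunit of the vacuolar proton pump. Their root mean square difference from it was 0.0319 to 0.0378 on the log2 scale over 6 libraries, the smallest among 12024 protein-coding genes. For comparison, the members themselves lay 0.0430 (Cct3) to 0.850 (Cct4) from their own median.

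Near relatives of the subunits were almost silent. Cct6b, the testis-enriched relative of Cct6a, had 7, 15 and 4 counts in shNC and 0, 15 and 5 in shBmal1, and the 2 rows named Cct8l1 had 4, 2 and 3 and 8, 1 and 4 counts in shNC and none in shBmal1. None of these was tested. RefSeq lists 26 pseudogenes named after the subunits, 14 of them after Cct6a, 4 after Cct3, 3 each after Cct7 and Cct8, 1 each after Tcp1 and Cct5 and none after Cct2 or Cct4. The treatment of reads that also match such copies was not stated (not given in the sources used here), so the levels of Cct6a are the least certain in this respect.

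None of the 4 tested genes that start within 1 kb of a subunit's start on the other strand was called higher. Of all tested genes 36.0% were, but 4 genes are too few to set against that share. The mitochondrial ribosomal protein gene Mrpl18 starts 372 bases from Tcp1 on the other strand, and it fell from 17.4 ± 0.87 to 11.1 ± 2.82 CPM (adjusted p = 0.0172, edgeR) while Tcp1 rose. Atpsckmt, which encodes a lysine methyltransferase of ATP synthase, starts 158 bases from Cct5 and fell from 10.0 ± 0.55 to 4.89 ± 0.87 CPM (adjusted p = 0.00250, edgeR). Pradc1, 95 bases from Cct7, stood at 3.12 ± 0.10 CPM in shNC and did not pass (adjusted p = 0.799, edgeR). A long noncoding RNA gene, AABR07036010, starts 146 bases from Cct6a. It stood at only 0.79 ± 0.23 CPM in shNC and did not pass (adjusted p = 0.479, edgeR). Tsacc, 88 bases from Cct3, had no count. Usp16, which encodes a deubiquitinase, overlaps the last 170 bases of Cct8 on the opposite strand and rose from 37.1 ± 0.34 to 179 ± 24.1 CPM (adjusted p = 6.55e-07, edgeR). The labels do not say if counting took strand into account, so reads in that overlap cannot be assigned to Cct8 or Usp16 with certainty. Acat2l1 overlaps 606 bases of Tcp1 on the opposite strand and did not pass (adjusted p = 0.620, edgeR), at 7.51 ± 3.32 CPM in shBmal1, far below Tcp1. The small nucleolar RNA genes inside Tcp1, Cct3 and Cct6a were near 0 in both groups.

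Prefoldin genes were higher along with the subunits. All 9 genes of the prefoldin and prefoldin-like list were tested, and all 9 rose, with a median log2 fold change of 1.07, where 36.0% of all tested genes were called higher; with TPM the count was 8. Their summed level was 265 to 269 CPM in shNC and 565 to 627 CPM in shBmal1. Pdrg1, which encodes a prefoldin-like protein, had an FPKM of 21.1, 24.5 and 24.1 in shNC and 87.5, 99.9 and 102 in shBmal1 (log2 fold change 1.94 ± 0.09, SE; adjusted p = 7.38e-07, edgeR). Uxt, another prefoldin-like gene, rose by 1.53. Of the canonical subunits, Pfdn2 and Vbp1 rose by 1.38 and 1.34, Pfdn4 by 1.07, Pfdn1 by 0.87, Pfdn6 by 0.85 and Pfdn5 by 0.75 on the log2 scale. Uri1 had the smallest change (0.71) and was not called with TPM (0.32, adjusted p = 0.0861, limma).

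Of 5 tested genes listed as phosducin-like proteins or other CCT partners, 3 were higher and 2 lower, beside 36.0% and 35.3% of all tested genes. Pdcl and Pdcl3, which encode phosducin-like proteins that work with CCT, fell. Pdcl had an FPKM of 7.75, 7.45 and 8.43 in shNC and 4.60, 4.83 and 5.62 in shBmal1 (log2 fold change −0.76 ± 0.12, SE; adjusted p = 0.000751, edgeR), and Pdcl3 fell by 0.74 (adjusted p = 0.00780). Txndc9, which encodes a thioredoxin-like regulator of CCT, rose by 0.76, and the protein phosphatase 4 subunit genes Ppp4r2 and Ppp4r3a by 0.87 and 2.31. Pdcl2 had no count in any library. Among the tested chaperonin-like genes related to CCT, Mkks fell by 0.53 ± 0.14 (SE, with adjusted p = 0.00938, edgeR), and Bbs10 (−0.16) and Bbs12 (−0.51) did not pass. Bbs12 passed without shBmal1 replicate 1 (−1.94, adjusted p = 0.0205, edgeR).

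The main clients did not follow the chaperonin. Of 9 tested genes of the actin family, 7 fell and 2 rose, with a median log2 fold change of −1.11, beside 35.3% lower and 36.0% higher among all tested genes. Actb, which encodes cytoplasmic beta-actin, had an FPKM of 2591, 2680 and 2493 in shNC and 1004, 978 and 1038 in shBmal1, with no overlap between the groups. Its log2 fold change was −1.47 ± 0.06 (SE; adjusted p = 2.63e-07, edgeR). Acta2, the smooth muscle actin gene, fell by 4.16 and Actr1b, a dynactin subunit gene, by 1.31. The 2 that rose were Actr10 (0.98), another dynactin subunit gene, and Actr2 (0.33), an Arp2/3 subunit gene named for being 1 of the 2. With TPM 1 gene of this family, Actr10, was called higher and 7 lower. Summed levels of this family were 7996 to 8346 CPM in shNC and 2921 to 3145 CPM in shBmal1, so actin transcripts were lower in the libraries in which CCT transcripts were higher.

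Tubulin genes were called at shares near those of all tested genes (36.0% higher, 35.3% lower). Among the 16 that were tested, 7 fell, 6 rose and the other 3 missed the threshold, and with TPM, on which 15 were tested, 4 were higher and 8 lower. Tubb5, the most abundant beta-tubulin gene of the shNC libraries, had an FPKM of 348, 339 and 323 in shNC and 142, 112 and 123 in shBmal1 (log2 fold change −1.53 ± 0.09, SE; adjusted p = 2.80e-06, edgeR). The alpha-tubulin genes Tuba1a and Tuba1b fell by 1.26 and 1.18. Tubb6 moved the other way, from 67.3, 63.1 and 66.6 to 163, 175 and 169 FPKM (1.25 ± 0.06, SE; adjusted p = 8.80e-07, edgeR). Of the 6 that rose, Tuba8 and Tubb4a had no count in shNC, and they entered the test by their shBmal1 counts alone, which fixes their direction. Of the 7 tubulin folding cofactors, which assemble tubulin dimers after CCT, Tbcel rose from 9.65 ± 0.78 to 27.3 ± 3.93 CPM, Tbca rose by 0.85 on the log2 scale, Arl2, Tbcd and Tbcc fell by 1.59, 0.89 and 0.68, and 2 did not pass.

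WD-repeat and other clients also moved both ways, with 7 of 21 tested rows higher, 11 lower and 3 not passing (median −0.28). Their summed level was nevertheless higher, at 1901 to 1980 CPM in shNC and 2990 to 3282 CPM in shBmal1. The smallest p was that of Ppp4c, which encodes the catalytic subunit of protein phosphatase 4, with an FPKM of 27.1, 28.7 and 26.4 in shNC and 162, 186 and 190 in shBmal1 (log2 fold change 2.60 ± 0.08, SE; adjusted p = 1.18e-07, edgeR). Strap and Ppp2r2a, both encoding WD-repeat proteins, rose by 1.93 and 1.62, and the abundant row of Rack1, which encodes a ribosomal WD-repeat protein, by 1.23. A further row also named Rack1 stood at 2.80 ± 1.40 CPM in shNC, and how reads were divided between the rows is uncertain. Among the 11 rows that fell, the smallest p was that of Mlst8 (log2 fold change −2.34 ± 0.22, SE, with adjusted p = 2.95e-05, edgeR). Over all partner and client lists together, 32 of 74 tested rows were higher and 32 lower, with a median log2 fold change of −0.08, beside 36.0% higher, 35.3% lower and a median of −0.01 over all tested genes. The higher rows include Tuba8 and Tubb4a, whose direction was fixed by their entry into the test.

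The mitochondrial chaperonin, which is of the other structural class, was higher as well. Hspd1, which encodes HSP60, had an FPKM of 51.2, 53.8 and 55.7 in shNC and 314, 288 and 301 in shBmal1 (log2 fold change 2.38 ± 0.06, SE; adjusted p = 5.51e-08, edgeR), and its lid subunit gene Hspe1 rose by 2.23. Hspd1 thus changed more than 7 of the 8 CCT subunits and less than Cct4. Of the heat shock factor genes, Hsf1 fell by 0.75 ± 0.11 (SE; adjusted p = 0.000457, edgeR) and Hsf2 rose by 1.38 ± 0.13 (adjusted p = 3.84e-05). These are transcript levels, and the activity of the factors was not measured.

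**Figure D4:**
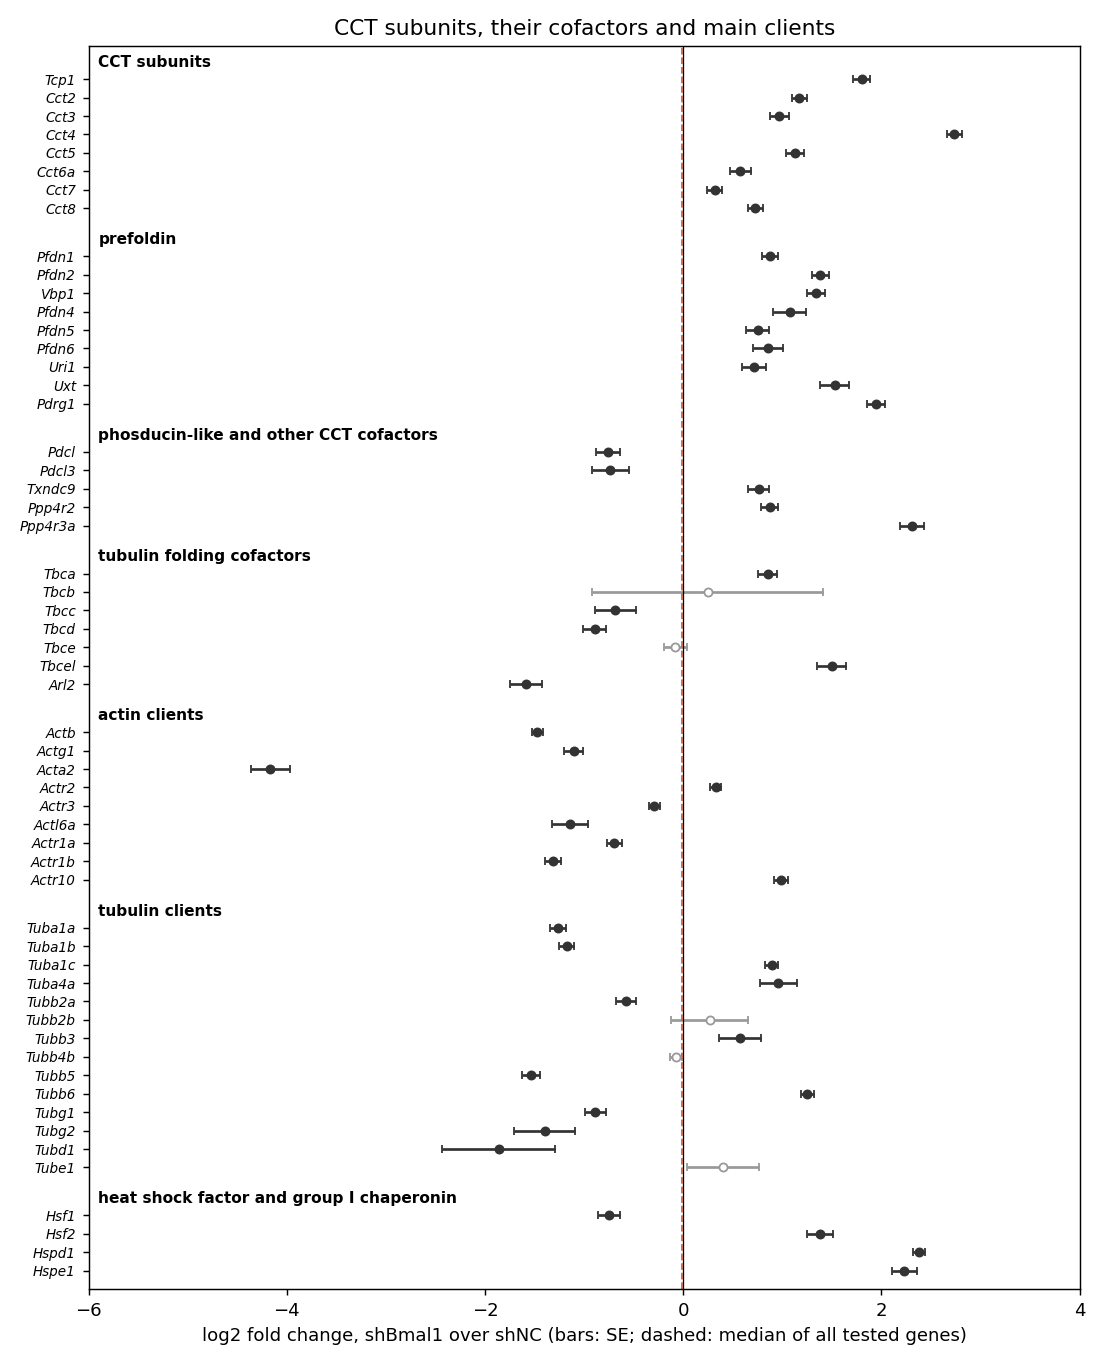
The log2 fold change of shBmal1 over shNC (x axis, points with SE bars) for the 8 CCT subunits and the tested genes of 6 of the 8 partner and client lists, without the WD-repeat and chaperonin-like ones (y axis): filled points passed edgeR's test and open points did not, the dashed line is the median of all tested genes, and Tuba8 and Tubb4a, with no count in shNC, are not drawn. All CCT subunits and all 9 prefoldin genes lie to the right of 0, while 7 of the 9 actin family genes lie to the left.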

How the data were processed

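The authors deposited raw read counts and FPKM per gene and library, per the file headers. Per the submitters' processing notes, HISAT2 2.0.4, cutadapt 1.9 and StringTie 1.3.4d were among the tools, as were DESeq2 and edgeR, without a stated role. Build, annotation, counter and strand use: not given in the sources used here. Groups came from sample titles.

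Genes with low counts were dropped with filterByExpr (min.count 10, min.total.count 15), library sizes were adjusted by TMM, and all remaining genes were fitted together in edgeR 4.0.16 (R 4.3.3; glmQLFit and glmQLFTest) with no block. A call needs a Benjamini-Hochberg adjusted p under 0.05. For the balance of subunits the same fit used the log of the summed CCT count as offset. Alternatives used other scalings, no filter, DESeq2 1.42.0, limma 3.58.1 on log2(TPM + 1) or log2(TPM + 0.1) (FPKM rescaled by library, at least 1 TPM in 3 libraries), a replicate block and each library left out. The procedure was tested on simulated counts. The deposited counts set the precision, and depth differs between the groups. Where a gene has no count, the deposited FPKM reads 1e-04.

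Members, gene lists and tests were chosen with earlier results of these data known. Genes named are the 8 subunits, Arntl, 5 genes of like profile, the tested prefoldin, phosducin-like and chaperonin-like genes, and up to 4 genes with the smallest p from each other partner or client list. Other genes (neighbours and relatives of the subunits, Actr2, Tbcc, Tuba8, Tubb4a, Mlst8, Cd14, Cd68, Tbxt, Mgp, Acan, Pax1, Sox9, Foxf1 and Ca3) were named after their values were seen. Promoter sequences are from RefSeq (GRCr8), which matched 8 of 8 symbols.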

Additional observations from a re-analysis of the deposited data

How the results depend on the processing

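The count of CCT subunits called higher was 8 in the main analysis, under each other scaling of the counts, without the filter, with DESeq2, with the block and in each fit that left out 1 library, and 6 with TPM at either pseudocount. With TPM, Cct7 came to −0.0570 with a pseudocount of 1 and −0.0574 with 0.1 (adjusted p = 0.563 and 0.556, limma), Cct6a to 0.20 in both (adjusted p = 0.198 and 0.203, limma) and Uri1 to 0.32 and 0.33 (adjusted p = 0.0861 and 0.0903, limma). Partner and client genes called higher numbered 27 to 33 and those called lower 29 to 36 over the alternatives. Against the 7 subunits other than Cct4, a reference added after the values were seen, 3 subunits were called lower in place of 6, and Cct2 and Cct5 turned to 0.17 and 0.13; taking Cct4 out of the reference raises each value by construction.

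The replicate numbers in the titles did not pair the libraries: correlations of same-numbered deviations were −0.07, 0.02 and 0.03. With a replicate block, 8 subunits were called higher, all calls numbered 4663 higher and 4752 lower (5167 and 5066 without), and relative to the summed CCT count 4 subunits were called lower in place of 6 (Cct2, adjusted p = 0.110; Cct5, 0.0523; edgeR). The lower depth of shBmal1 limits low genes such as Bbs12 and Cct6b more than the subunits, which had at least 1235 counts in each library.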
